A study of Rattus norvegicus with 4 samples.

Results

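Sertoli cells feed and signal to the germ line through the proteins they secrete, and 9 genes for such products and signals were followed in RNA of rat primary Sertoli cells, with or without 4-nonylphenol (4-NP). The genes were Inha, Inhba and Inhbb (inhibin and activin subunits), Clu (clusterin), Tf (transferrin), Dhh (desert hedgehog), Kitlg (kit ligand), Shbg (androgen-binding protein) and Cst12 (a cystatin). They were chosen by name as known Sertoli products, with earlier results of these data known, and all 9 of them were among the 13114 gene names of the mRNA table.

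4-NP is an alkylphenol that binds estrogen receptors, and the treated cells were exposed to it for 24 h while the control cells were cultured without it. There were 2 libraries from 4-NP-treated cells and 2 from control cells, and no transgene or deletion is given for either group. The cells were enriched from the testes of young Sprague-Dawley pups and cultured, so they are a model of immature Sertoli cells outside the tubule, and an enriched culture can still hold other testis cells. Total RNA was sequenced after removal of ribosomal RNA, and levels are FPKM (fragments per transcript length and library size), a scale relative to length on which genes can be set side by side. Mapped reads came to 104 M and 96.6 M in the 4-NP-treated libraries, against 116 M and 119 M in the control libraries.

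The products act on different partners. Inhibins, dimers of an alpha and a beta subunit, leave the tubule and restrain pituitary release of follicle-stimulating hormone, whereas dimers of beta subunits alone are activins, which act through their own receptors and Smad proteins. Transferrin carries iron to germ cells behind the blood-testis barrier, kit ligand supports spermatogonia that carry the Kit receptor, and desert hedgehog acts on peritubular myoid and Leydig cells outside the tubule. Androgen-binding protein carries androgen into the tubule fluid, and clusterin is a secreted chaperone.

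Most of these products were lower in 4-NP-treated cells. Of the 9 genes, 6 fell (Inha, Inhbb, Clu, Tf, Dhh and Kitlg), 0 rose, Inhba did not pass the test, and Shbg and Cst12 were too low to be tested. Over all 8012 genes tested, 23.1% fell and 24.7% rose (limma, Benjamini-Hochberg adjusted p under 0.05), and 4447 had an unadjusted p under 0.05. Only genes averaging 1 FPKM or more were tested, which 7 of the 9 did. Inhbb, Dhh and Kitlg did so only through their control levels, so this count is a description and not support. The median log2 change of the 7 was -1.34, beside 0.05 over all genes tested. That median is the value of Kitlg, one of these 3 genes, so it too is a description and not support. In all 9 genes both 4-NP-treated libraries lay below both controls, an order found in 35.7% of all gene names. Summed over the 9 genes, the level was 66.4 and 59.6 FPKM in 4-NP-treated cells, against 203 and 195 FPKM in control cells. Whether the 2 libraries of a group are separate cultures is not stated, and the p-values cover just the variation among these libraries, which may be technical. In bulk RNA, fewer cells of a type and less RNA per cell cannot be told apart.

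**Figure D1:**
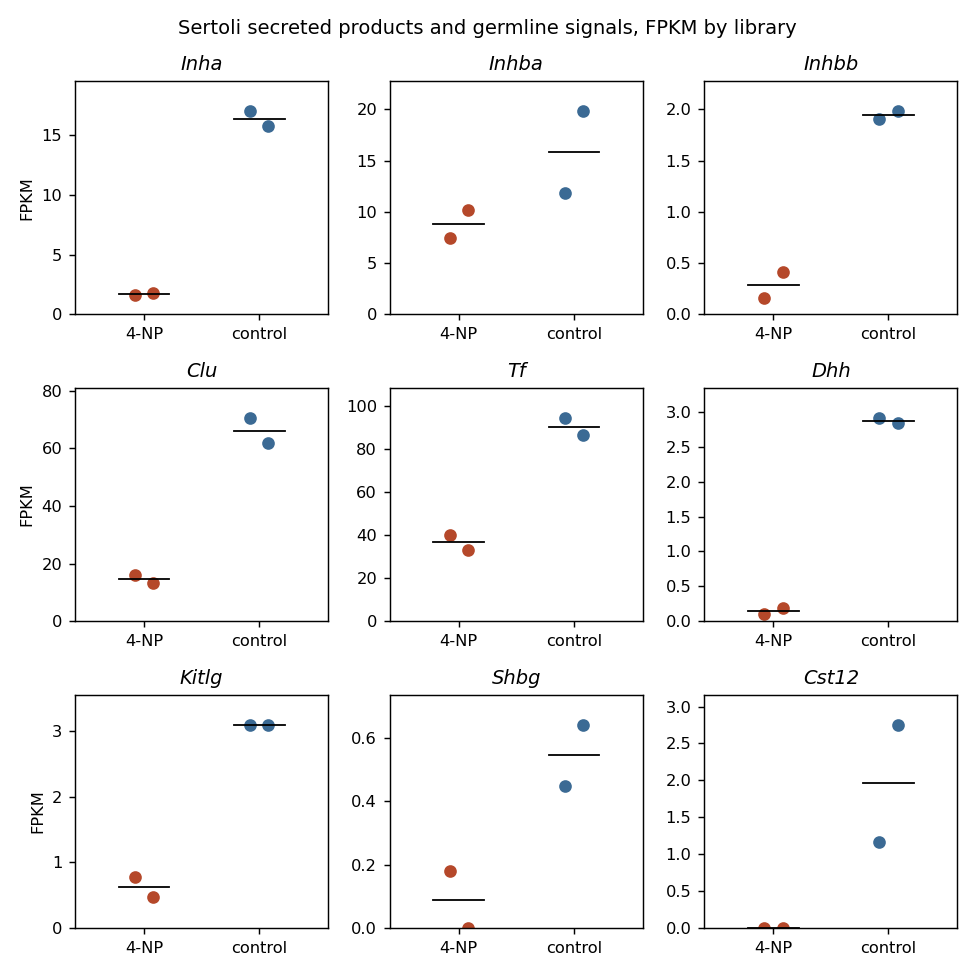
FPKM of the 9 genes in each library, with 4-NP-treated libraries on the left and control libraries on the right of each panel. Each point is 1 library, each bar the mean of 2, and every vertical axis starts at 0. In every panel both 4-NP-treated points lie below both control points, and for Cst12 both are at 0.

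Inha encodes the alpha subunit that every inhibin contains. It measured 1.65 and 1.78 FPKM in 4-NP-treated cells, against 17.0 and 15.7 FPKM in control cells. The groups were far apart and the libraries within each group close together. The mean was 1.72 ± 0.0900 FPKM in 4-NP-treated cells and 16.3 ± 0.879 FPKM in control cells (SD, n = 2 each), 9.53-fold lower with treatment. On the log2(FPKM + 1) scale Inha fell by 2.68 ± 0.12 (SE, 95% interval -3.02 to -2.33, limma, adjusted p = 0.00122). Its adjusted p lay between 0.000832 and 0.0208 over 14 other settings.

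Inhba encodes the beta A subunit of inhibin A and activin A. Its level was 7.49 and 10.2 FPKM in 4-NP-treated cells, against 11.8 and 19.8 FPKM in control cells. The control libraries were far apart, and the lower of them was near the higher 4-NP-treated one. The mean was 8.84 ± 1.90 FPKM in 4-NP-treated cells and 15.8 ± 5.65 FPKM in control cells (SD, n = 2 each). The log2 change of -0.74 ± 0.31 had an interval of -1.61 to 0.13, which includes no change as well as the size seen for several of the other genes (limma, adjusted p = 0.125).

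Inhbb encodes the beta B subunit, which pairs with alpha in inhibin B, the main circulating inhibin of males. The 4-NP-treated libraries held 0.157 and 0.411 FPKM of it and the control libraries 1.90 and 1.98 FPKM. Both treated values were low, and the spread between them was larger than that between the controls. The mean was 0.284 ± 0.180 FPKM in 4-NP-treated cells and 1.94 ± 0.0541 FPKM in control cells (SD, n = 2 each), 6.82-fold lower with treatment. Inhbb fell by 1.20 ± 0.19 on the log2(FPKM + 1) scale (interval -1.73 to -0.67, limma, adjusted p = 0.0122). Without 4-NP replicate 1 the change was -1.06 and no longer passed (adjusted p = 0.0503). Its mean of 1.11 FPKM over the 4 libraries was just above the minimum for testing, and that of Cst12, 0.979 FPKM, just below it.

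Beta A and alpha stood in different proportions in the treated and control libraries. Inhba over Inha was 4.54 and 5.73 in 4-NP-treated libraries, against 0.696 and 1.26 in control libraries. In control cells the alpha and beta A levels overlapped, while in 4-NP-treated cells beta A was above alpha in both libraries. The mean of the 2 Inhba over Inha ratios was 5.25 times higher with treatment. Inhbb over Inha was 0.0953 and 0.231 in 4-NP-treated libraries, against 0.112 and 0.126 in control libraries, and these overlapped. Inhba over Inhbb was 47.6 and 24.8 in 4-NP-treated libraries, against 6.21 and 10.0 in control libraries. With 2 libraries a group an exact permutation test cannot give a two-sided p below 0.333, so the ratios are given with no test. They are of RNA and not of secreted protein.

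**Figure D2:**
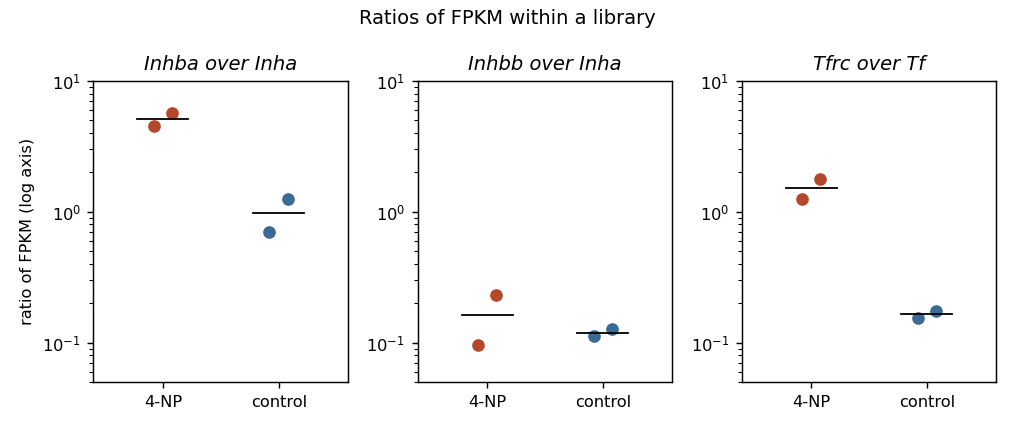
Ratios of FPKM within a library on a log axis, with 4-NP-treated libraries on the left and control libraries on the right. Points are libraries and bars the means of 2 ratios. Inhba over Inha lies above 4 in both 4-NP-treated libraries and at 0.696 and 1.26 in controls, Inhbb over Inha overlaps between the groups, and Tfrc over Tf lies above 1 only in 4-NP-treated libraries.

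Each inhibin subunit came from 1 transcript in the table, at deposited coordinates, for which no source used here names the genome build. That of Inha lies on chromosome 9 from 82700468 to 82703400 on the plus strand with 2 exons, that of Inhba on chromosome 17 from 51898217 to 51912496 on the minus strand with 3 exons, and that of Inhbb on chromosome 13 from 35436532 to 35442222 on the minus strand with 2 exons. The 250 bases before the RefSeq starts in GRCr8 are shown because the subunits are made from separate genes whose levels stood in different proportions in the 2 groups. They lie at chr9:84442859-84443108 (plus strand, Inha), chr17:53804509-53804758 (minus strand, Inhba) and chr13:33089374-33089623 (minus strand, Inhbb). Each is written 5′ to 3′ along its gene, with motifs in capitals. The RefSeq gene of Inhba extends further upstream than its window, so an earlier start exists.
Inha: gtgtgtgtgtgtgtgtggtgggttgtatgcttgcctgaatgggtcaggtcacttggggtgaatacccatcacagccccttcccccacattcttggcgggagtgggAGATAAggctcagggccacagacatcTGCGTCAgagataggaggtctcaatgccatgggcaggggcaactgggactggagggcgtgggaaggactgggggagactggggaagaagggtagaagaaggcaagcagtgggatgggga
Inhba: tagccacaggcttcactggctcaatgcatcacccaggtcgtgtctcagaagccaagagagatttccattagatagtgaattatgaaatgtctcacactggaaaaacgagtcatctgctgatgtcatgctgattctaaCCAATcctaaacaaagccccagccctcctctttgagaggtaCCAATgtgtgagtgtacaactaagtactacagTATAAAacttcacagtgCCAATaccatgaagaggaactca
Inhbb: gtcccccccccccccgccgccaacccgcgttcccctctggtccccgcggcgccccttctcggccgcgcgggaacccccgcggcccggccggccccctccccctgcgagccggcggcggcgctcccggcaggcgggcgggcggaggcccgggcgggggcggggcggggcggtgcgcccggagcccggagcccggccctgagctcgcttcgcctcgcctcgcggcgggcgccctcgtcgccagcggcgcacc
Motifs were searched as fixed letters on both strands, and TGCGTCA was added after the Inha window had been seen. The Inha window holds AGATAA, the core of a GATA site, 145 to 140 bases before the start, and TGCGTCA, a variant of the cAMP response element, 119 to 113 bases before it. Among 33469 promoter windows AGATAA occurs in 10.3% and TGCGTCA in 1.66%. The Inhba window holds TATAAA 40 to 35 bases before the start and CCAAT in 3 places, at 113 to 109, 72 to 68 and 23 to 19 bases before it. TATAAA occurs in 12.9% of all windows and CCAAT in 34.0%. None of the letters searched, which also included TGACGTCA (1.59% of windows) and CAAGGTCA (1.33%), is in the Inhbb window. Inhbb had 86.8% G and C, against 58.4% in Inha, 43.6% in Inhba and a median of 51.2% over all windows. These matches describe the letters only. Of the 9 genes, 8 had a window in the RefSeq table, and Clu did not.

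Clu encodes clusterin, one of the most abundant proteins that Sertoli cells secrete. It measured 16.0 and 13.3 FPKM in 4-NP-treated cells, against 70.5 and 61.8 FPKM in control cells. The ranges were far apart compared with the spread within either group. The mean was 14.6 ± 1.90 FPKM in 4-NP-treated cells and 66.1 ± 6.10 FPKM in control cells (SD, n = 2 each), 4.52-fold lower with treatment. The log2 change was -2.10 ± 0.13 (interval -2.47 to -1.74, limma, adjusted p = 0.00190). A transcript of 9 exons on chromosome 15 from 42653148 to 42665857 carried 96.4% and 96.5% of the Clu level in 4-NP-treated libraries, against 96.8% and 98.8% in control libraries. The shorter transcript of 6 exons that carried the rest measured 0.579 and 0.471 FPKM in 4-NP-treated cells, against 2.24 and 0.761 FPKM in control cells. Both transcripts were thus lower in the treated libraries, and the long one made up nearly all of the gene's level in each.

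Tf encodes transferrin, the serum iron carrier that Sertoli cells also make. It had the highest level of the 9 genes in all 4 libraries. In 4-NP-treated cells it stood at 40.0 and 33.3 FPKM, against 94.2 and 86.5 FPKM in control cells. The groups did not overlap. The mean was 36.6 ± 4.78 FPKM in 4-NP-treated cells and 90.4 ± 5.45 FPKM in control cells (SD, n = 2 each), 2.47-fold lower with treatment. Tf fell by 1.28 ± 0.12 on the log2(FPKM + 1) scale (interval -1.62 to -0.95, limma, adjusted p = 0.00390). Its single transcript has 17 exons and lies on chromosome 8 from 111694566 to 111721303 on the minus strand. Its share of the summed level was 60.3% and 55.8% in 4-NP-treated libraries, against 46.4% and 44.3% in control libraries. The share of Inha was 2.49% and 2.98% in 4-NP-treated libraries, against 8.36% and 8.06% in control libraries.

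Dhh encodes the hedgehog ligand of Sertoli cells. Its level was 0.104 and 0.188 FPKM in 4-NP-treated cells, against 2.91 and 2.84 FPKM in control cells. It was low throughout and near 0 in the treated libraries. The mean was 0.146 ± 0.0590 FPKM in 4-NP-treated cells and 2.87 ± 0.0532 FPKM in control cells (SD, n = 2 each), a 19.7-fold ratio that rests on very low treated values. On the log2(FPKM + 1) scale, which understates changes of low genes, Dhh fell by 1.76 ± 0.16 (interval -2.20 to -1.31, limma, adjusted p = 0.00372). Its transcript of 3 exons lies on chromosome 7 from 140575288 to 140580783 on the minus strand.

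Kitlg encodes kit ligand (stem cell factor), which exists in membrane-bound and soluble forms. It measured 0.778 and 0.475 FPKM in 4-NP-treated cells, against 3.09 and 3.10 FPKM in control cells. The controls were nearly equal and well above both treated libraries. The mean was 0.627 ± 0.214 FPKM in 4-NP-treated cells and 3.09 ± 0.00265 FPKM in control cells (SD, n = 2 each), 4.94-fold lower with treatment. Kitlg fell by 1.34 ± 0.18 on the log2(FPKM + 1) scale (interval -1.84 to -0.83, limma, adjusted p = 0.00845). The table lists a transcript of 10 exons and one of 9 exons, both on chromosome 7 from 42269784 to 42351054 on the plus strand, which differ by 84 bases in length. The transcript of 10 exons was at 0.778 and 0.475 FPKM in 4-NP-treated cells, against 2.31 and 2.71 FPKM in control cells. That of 9 exons was listed at 0 in both 4-NP-treated libraries and at 0.781 and 0.389 FPKM in control libraries, where it made up 25.3% and 12.6% of the gene's level. In mouse and human, skipping of an exon with the main cleavage site gives the form that stays on the membrane, and which exon differs between these transcripts was not analysed here.

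Shbg and Cst12 stayed under the minimum for testing. Shbg, whose product in Sertoli cells is androgen-binding protein, was at 0.179 FPKM and listed at 0 in 4-NP-treated cells, against 0.449 and 0.641 FPKM in control cells. Cst12, of the cystatin family of cysteine protease inhibitors, was listed at 0 in both 4-NP-treated libraries, against 1.17 and 2.75 FPKM in control cells. The treated values lay below the controls for both genes, but levels this low carry no fold. With a minimum of 0.1 FPKM both genes were tested, although Cst12, at 0 in both treated libraries, could only come out lower, and the log2 change was -1.51 for Cst12 (limma, adjusted p = 0.0285) and -0.51 for Shbg (adjusted p = 0.0559). The Cst12 transcript has 3 exons on chromosome 3 from 143119687 to 143123582, and that of Shbg has 9 exons on chromosome 10 from 56219858 to 56223245. In the deposited coordinates no other gene of the table overlaps any of the 9 genes. The lncRNA table, with 265 selected entries, holds none within 100 kb of any of them.

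**Figure D3:**
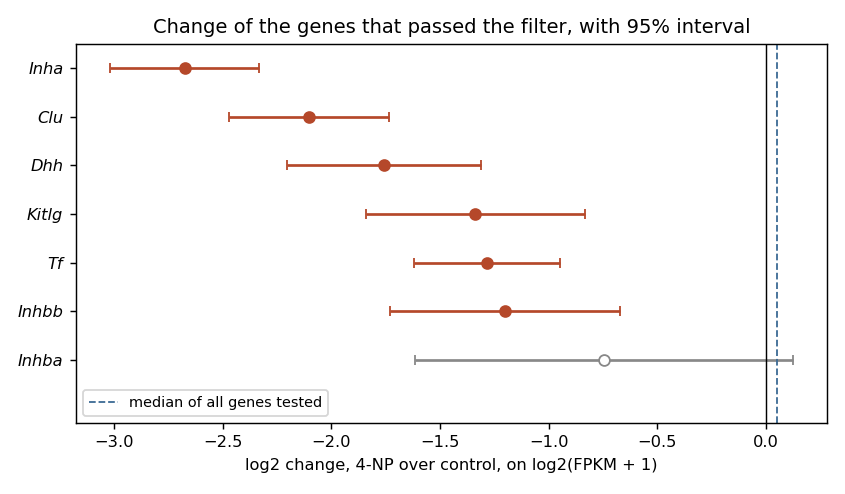
Log2 change on log2(FPKM + 1), 4-NP over control, of the 7 genes that passed the minimum, with the 95% interval of limma. Filled points passed at an adjusted p under 0.05, and the dashed line is the median of all genes tested, 0.05. Inha lies lowest at -2.68, and only the interval of Inhba, -1.61 to 0.13, crosses 0.

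The order of levels was partly different in the groups. In 4-NP-treated cells it ran Tf, Clu, Inhba, Inha, Kitlg, Inhbb, Dhh, Shbg and Cst12. Among the last 4, each overlapped or equalled the next, so neighbours could not be separated. Inhbb and Dhh both lay above Cst12 in both libraries. In control cells it ran Tf, Clu, Inha, Inhba, Kitlg, Dhh, Cst12, Inhbb and Shbg, with overlap between Inha and Inhba and between Cst12 and Inhbb. Inhba was thus the third product by level after treatment, while in control cells its range included that of Inha.

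The genes whose 4 values most resembled each product's were named by the distance between log2 values centred on their own means. Only tested genes were compared, and symbols starting with LOC, RGD, AABR, MSTRG, or AC and a digit were left out. Inha was closest to Pfkl, liver-type phosphofructokinase of glycolysis, at a distance of 0.0209 on the log2 scale. Pfkl fell by 2.68, as Inha did, from a much higher level, with 11.1 ± 0.448 FPKM in 4-NP-treated cells and 76.7 ± 2.93 FPKM in control cells (SD, n = 2 each). The next was Sapcd1, at 0.0377. Clu was closest to Tubb2b, a beta tubulin (0.0429), and Tf to Foxs1, a forkhead transcription factor (0.0477). For Dhh they were Ptgr1, a prostaglandin reductase (0.0448), and Fzd7, a Wnt receptor (0.0541). Kitlg was nearest to Pygm, muscle glycogen phosphorylase (0.0653), and Inhbb to Zdhhc15, a palmitoyltransferase (0.0512). The closest to Inhba was Nf2, the gene of merlin, at 0.0827, and it did not pass the test either. With 4 libraries in 2 groups many genes share such a pattern, so these are descriptions.

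Among the partners of inhibins and activins, 5 of 8 tested genes fell, 2 rose and Smad2 did not pass, out of 14 listed by name, with a median log2 change of -0.89. Over all genes tested 23.1% fell and 24.7% rose, so the share that rose was near that background. Fstl3, a secreted protein that binds activin, was at 4.28 and 3.68 FPKM in 4-NP-treated cells, against 16.1 and 15.3 FPKM in control cells, and fell by 1.75 (limma, adjusted p = 0.00227). Tgfbr3, betaglycan, the coreceptor that gives inhibin its hold on activin receptors, had 3.18 and 3.08 FPKM in 4-NP-treated cells, against 7.64 and 8.33 FPKM in control cells, and fell by 1.12 (adjusted p = 0.00578). These calls held when any single library was left out, and the other 5 did not pass in most or all such fits. Each such fit has 1 library in an arm, which is assumed to vary like the other group, so it has less power than the full fit. Acvr1b, a type I activin receptor, fell by 0.84, with an adjusted p of 0.0118 that was 0.0545 to 0.0650 in those fits. Smad3, which relays the activin signal, fell by 0.75 and had 0.0650 to 0.171, and Smad7, its inhibitor, fell by 0.94 and had 0.0733 to 0.0999 except without control replicate 2. Acvr2a, a type II receptor, and Bambi, a decoy receptor, rose by 0.43 and 0.48, and neither passed with any library left out (0.106 to 0.150 for Acvr2a and 0.0915 to 0.150 for Bambi) or with equal totals (0.0731 for Acvr2a and 0.0769 for Bambi). Fst, follistatin, was at 0.149 FPKM and listed at 0 in 4-NP-treated cells, against 1.28 and 1.01 FPKM in control cells, and was not tested.

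Proprotein convertases cut inhibin subunits and other precursors. Pcsk6 fell by 1.69 (limma, adjusted p = 0.00436), with 0.732 and 0.903 FPKM in 4-NP-treated cells, against 5.26 and 4.47 FPKM in control cells. Furin and Pcsk5, the other tested members of a list of 4, overlapped between the groups and did not pass. So 1 of 3 fell, beside 23.1% of all genes, and Pcsk6 passed the minimum only through its control levels, so nothing is read from the count.

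The receivers of the germline signals were read in the same cells, although germ, myoid and Leydig cells are their usual site. Kit, the receptor of kit ligand and itself a germ cell marker, was at 0.619 and 0.392 FPKM in 4-NP-treated cells, against 3.69 and 3.49 FPKM in control cells. Its log2 change was -1.61 (limma, adjusted p = 0.00497), and like Kitlg it passed the minimum only through its control levels. Adam9, a membrane metalloprotease, fell by 0.78 (adjusted p = 0.0177), a call lost without control replicate 1 (0.0915) or control replicate 2 (0.0773). Adam10, Adam17 and Mmp9, proteases of the same list of 5, did not pass. In the hedgehog list, 1 of 4 tested genes fell and 0 rose, out of 14 named, with a median of -0.20, and 1 of 4 is near the 23.1% of all genes that fell. Smo, the signal transducer of the pathway, averaged 12.3 ± 0.351 FPKM in 4-NP-treated cells and 18.6 ± 0.431 FPKM in control cells (SD, n = 2 each) and fell by 0.56 (adjusted p = 0.0110). That call was lost with any library left out (0.0509 to 0.0608). Ptch1, the hedgehog receptor and a target of the pathway, was at 1.29 and 0.996 FPKM in 4-NP-treated cells, against 1.08 and 1.36 FPKM in control cells, and these overlapped. Sufu, an inhibitor of the pathway, and Boc, a coreceptor, overlapped as well. Gli1, another target, was under 0.3 FPKM in all 4 libraries.

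Tf fell while the 2 tested genes of a list of 5 for transferrin uptake rose, Tfrc and Slc11a2. Over all genes tested 24.7% rose, and with only 2 tested nothing is read from the count. Tfrc, the receptor that takes up transferrin, measured 50.3 and 59.6 FPKM in 4-NP-treated cells, against 14.5 and 15.2 FPKM in control cells. It rose 3.71-fold, by 1.82 ± 0.11 on the log2(FPKM + 1) scale (limma, adjusted p = 0.00190). Slc11a2, which moves iron out of endosomes, was at 9.03 and 10.3 FPKM in 4-NP-treated cells, against 2.38 and 2.89 FPKM in control cells, and rose 3.66-fold (adjusted p = 0.00431). Both calls held with any library left out. Tfr2 and Hfe, untested genes of the same list, overlapped between the groups. Steap3, the reductase of the same endosomes, was listed at 0 and at 0.0128 FPKM in 4-NP-treated cells, against 1.57 and 1.77 FPKM in control cells. As a result, Tfrc over Tf was 1.26 and 1.79 in 4-NP-treated libraries, against 0.153 and 0.176 in control libraries, so receptor RNA exceeded ligand RNA only after treatment. Of 4 receptors for clusterin only Vldlr was tested. It stood at 0.813 and 1.67 FPKM in 4-NP-treated cells, against 8.60 and 3.96 FPKM in control cells, and fell by 1.65 (adjusted p = 0.0431), a call lost without 4-NP replicate 1 (0.173), 4-NP replicate 2 (0.105) or control replicate 1 (0.103).

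**Figure D4:**
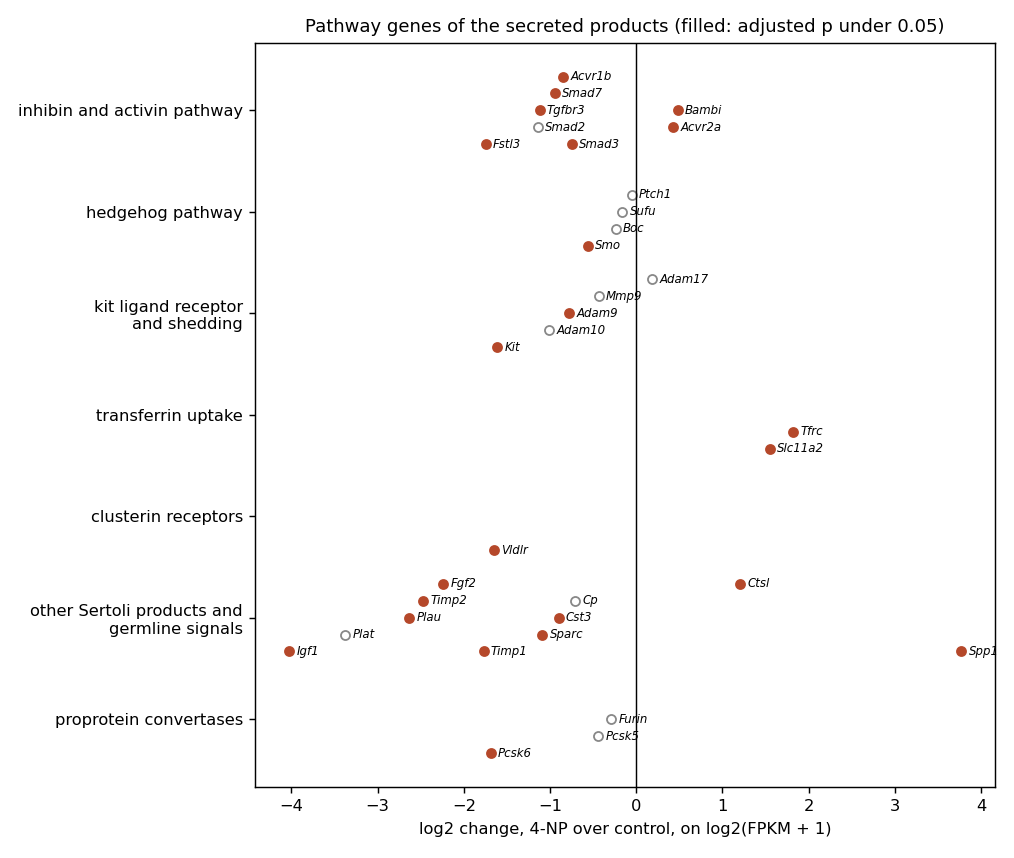
Log2 change on log2(FPKM + 1), 4-NP over control, of the tested genes in 7 lists of partners and further products. Each point is 1 gene, and filled points passed at an adjusted p under 0.05 (limma). Tfrc (1.82) and Slc11a2 (1.55) of transferrin uptake and Spp1 (3.77) and Ctsl (1.21) of the further products lie well to the right of 0, as opposed to Fstl3 (-1.75), Kit (-1.61) and Pcsk6 (-1.69).

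Further Sertoli products were read beside the 9 genes. In a list of 27, 7 of 11 tested genes fell, 2 rose, and Cp and Plat did not pass, with a median log2 change of -1.77, beside 23.1% lower, 24.7% higher and a median of 0.05 over all genes tested. Fgf2, Igf1 and Plau of those that fell passed the minimum only through their control levels. Timp2, an inhibitor of matrix metalloproteases, had 19.0 and 20.9 FPKM in 4-NP-treated cells, against 115 and 115 FPKM in control cells. Igf1, a growth factor, was at 0.504 and 0.570 FPKM in 4-NP-treated cells, against 22.4 and 25.9 FPKM in control cells. Timp2 fell by 2.47 (limma, adjusted p = 0.000808), and Igf1 fell by 4.03 (adjusted p = 0.000866). The products that rose were Spp1 and Ctsl. Spp1, osteopontin, was at 175 and 174 FPKM in 4-NP-treated cells, against 11.7 and 12.0 FPKM in control cells, and rose 14.7-fold (adjusted p = 0.000380). Ctsl, the protease cathepsin L, measured 952 and 983 FPKM in 4-NP-treated cells, against 417 and 421 FPKM in control cells, and rose 2.31-fold (adjusted p = 0.00103). The fall was thus not shared by every secreted product of the list. Plat, tissue plasminogen activator, was at 0.379 and 0.579 FPKM in 4-NP-treated cells, against 4.50 and 41.7 FPKM in control cells. It passed without control replicate 1 (0.0179) or control replicate 2 (0.0229), but either removal takes away the spread between the controls, so this is no support. Amh and Gdnf were not analysed here.

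Markers of the cell types that the cultures could hold moved in the same libraries. Summed over the Sertoli list, the level was 10.7 and 10.6 FPKM in 4-NP-treated cells, against 41.4 and 42.9 FPKM in control cells. Of its 10 genes, 9 were listed and all 4 tested fell (Cldn11, Krt18, Wt1 and Nr5a1), beside 23.1% of all genes. Cldn11 and Wt1 passed the minimum only through their control levels, and Wt1 and Nr5a1 did not pass in most fits with 1 library left out (adjusted p up to 0.164 for Wt1 and 0.0803 for Nr5a1). Sox9, Gata4, Fshr and Dmrt1 of the same list were under 1 FPKM in both controls, and Dmrt1 was listed at 0 in both 4-NP-treated libraries. Peritubular myoid markers summed to 660 and 648 FPKM in 4-NP-treated cells, against 7893 and 7978 FPKM in control cells, and all 8 tested fell. The myoid sum was above the Sertoli sum in all 4 libraries, an order that depends on which genes were listed. With Sox9, Gata4, Fshr and Dmrt1 so low and myoid markers present, the markers go in part against the label. Tagln alone gave 3968 and 3901 FPKM of the myoid sum in control cells. Sums over different genes do not measure the share of each cell type. Leydig cell markers summed to 829 and 803 FPKM in 4-NP-treated cells, against 423 and 420 FPKM in control cells, but 1 of 3 tested rose and 2 fell. The sum was higher through Star, at 813 and 788 FPKM in 4-NP-treated cells, against 310 and 305 FPKM in control cells. Akr1c14 had 2.74 and 3.71 FPKM in 4-NP-treated cells, against 83.0 and 84.3 FPKM in control cells, Hsd11b1 was also lower, and Cyp17a1 was at or near 0 in all 4 libraries. Germ cell markers summed to 72.3 and 97.2 FPKM in 4-NP-treated cells, against 39.4 and 25.4 FPKM in control cells, but 1 of 5 tested rose and 4 fell (Dazl, Kit, Id4 and Tex101). The sum was higher through Uchl1, at 68.0 and 91.7 FPKM in 4-NP-treated cells, against 17.2 and 3.16 FPKM in control cells, a call lost without 4-NP replicate 1 (adjusted p = 0.137) or 4-NP replicate 2 (0.170). Ddx4 was listed at 0 in both 4-NP-treated libraries and at 1.33 FPKM in both controls. Dazl, Kit and Tex101 passed the minimum only through their control levels. Beside the Leydig and germ cell counts, 23.1% of all genes fell and 24.7% rose. Macrophage markers stayed under 10 FPKM in sum and endothelial markers under 9 FPKM. The part of cell composition in the lower levels of the 9 genes was not tested.

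**Figure D5:**
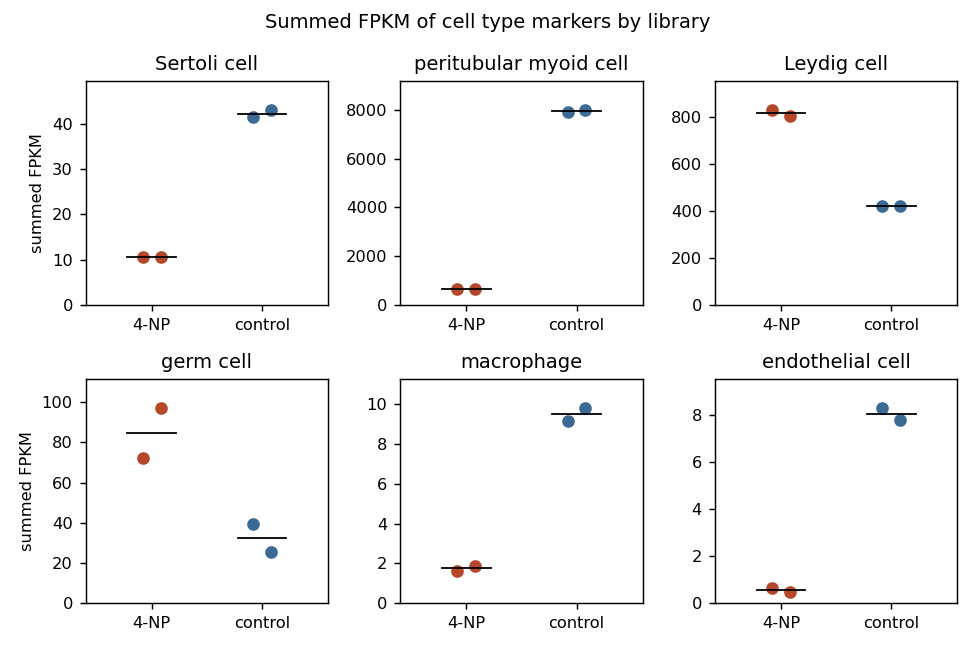
Summed FPKM of the marker genes of 6 cell types, with 4-NP-treated libraries on the left and control libraries on the right of each panel. Points are libraries, bars the means of 2, and vertical axes start at 0 and differ in range. Sertoli, myoid, macrophage and endothelial sums are lower in both 4-NP-treated libraries. Leydig and germ cell sums are higher, through Star and Uchl1, while 2 of 3 tested Leydig and 4 of 5 tested germ cell markers fell. Of these germ cell markers, Dazl, Kit and Tex101 passed the minimum only through their control levels. The call of Id4 was lost without control replicate 1 or control replicate 2.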

How the data were processed

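Total RNA libraries of primary Sertoli cells, 2 treated with 4-NP and 2 control, were assigned to groups by their titles. The members and gene lists were chosen with earlier results of these data known. For mRNAs the authors deposited FPKM per transcript, and for lncRNAs they deposited FPKM of 265 selected entries. For circRNAs the authors deposited read counts and a scaled score (spliced reads relative to mapped reads), from whose ratio the mapped reads per library were computed. circRNAs carried numbers only and were not assigned to genes. FastQC and edgeR are named in the study's methods and HISAT2 and DESeq2 in the submitters' processing notes. Versions, build, assembler and whether strand was used in counting: not given in the sources used here. The deposited columns of the authors' own comparison (fold, log2 fold, p-value, q-value and direction) were not used.

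Of 17290 rows, 1544 that repeated another exactly and 1 rounded second entry were dropped, and FPKM of 15745 transcripts was summed to 13114 gene names, of which 8 occur on several chromosomes. Near-identical gene copies may share reads. Since the values were FPKM and not counts, limma 3.58.1 (R 4.3.3, two-sided, with trend and group as the only term) was fitted to log2(FPKM + 1) of the 8012 genes averaging 1 FPKM or more, with Benjamini-Hochberg adjustment over all of them and a threshold of 0.05. Changes on this scale understate those of low genes, and fold values are ratios of mean FPKM. The test was also run on simulated data, in which far fewer genes changed than were called here. Between libraries, log2 values correlated across genes at 0.95 (4-NP), 0.94 (control) and 0.79 (across groups), and genes are not independent replicates. Depth beyond the mapped reads is unknown, because reads per gene were not recovered.

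Named were all 9 genes, up to 4 genes of each pathway list with the smallest p and those behind counts of 5 or fewer, the 3 most abundant markers of each type where they bore on a sum, and the 2 nearest genes to each tested product, of which a selection is printed. Alternatives were the pseudocount, the minimum level, the scaling, the trend, single transcripts, the study's threshold (unadjusted p with a change beyond 1), a replicate block and the removal of each library in turn. Promoters are from RefSeq (GRCr8), and no coordinates were moved between builds. Other steps used Python 3.11.15, pandas 2.3.3, numpy 2.4.6 and matplotlib 3.10.9.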

Additional observations from a re-analysis of the deposited data

How the results depend on the processing

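None of the 9 genes changed direction under any alternative that tested it. The highest adjusted p (limma) over the alternatives was 0.0208 for Inha, 0.0221 for Clu, 0.0321 for Tf, 0.0302 for Dhh and 0.0417 for Kitlg, while it ranged from 0.00849 to 0.0503 for Inhbb and from 0.0431 to 0.371 for Inhba. With any single library left out, which leaves 1 arm with a lone sample assumed to vary like the other group, 5 to 6 of them fell, with Inhbb the one lost, while over all genes 1270 to 1356 fell and 1134 to 1518 rose, against 1850 and 1981 with all libraries. A minimum of 5 FPKM left 4 of the genes to test, of which 3 fell, and 1158 of all genes fell with it. At an unadjusted p under 0.05 with a change beyond 1, 6 of the 9 fell, as did 1218 of all genes, and 914 rose. With equal FPKM totals 7 of the 9 fell, Cst12 then passing the minimum through its controls alone (limma, log2 change -1.54, adjusted p = 0.0255), and over all genes 2019 fell and 1811 rose. Without a minimum Cst12 also passed the test (adjusted p = 0.0373) and Shbg did not (0.0536). Libraries with the same replicate number showed no shared deviation, since their deviations correlated at -0.0077 over 8012 genes. Each group gave only 1 such deviation, so whether the samples were paired by replicate number cannot be told from this. With the number as a replicate block, 7 of the 9 fell, Inhba included (log2 change -0.74, adjusted p = 0.0431), and 1532 of all genes fell and 1684 rose. FPKM without reads per gene gives no counting error, so the values under 1 FPKM of Dhh, Inhbb, Kitlg, Shbg and Cst12 are the least certain.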

Other observations

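Other genes of the inhibin beta and cystatin families were looked up after the values of the 9 genes had been seen. Inhbe, the beta E subunit known mainly from liver, was at 15.0 and 16.6 FPKM in 4-NP-treated cells, against 0.800 and 0.989 FPKM in control cells. It rose 17.6-fold, by 3.15 ± 0.14 on the log2(FPKM + 1) scale (SE, limma, adjusted p = 0.00122). Inhbe passed the minimum only through its 4-NP-treated levels, and the fold rests on control values under 1 FPKM. It was above Inhba in both 4-NP-treated libraries and below it in both controls. Inhbc, the beta C subunit, was under 0.1 FPKM in all 4 libraries. Of the cystatins, Cstb, an intracellular inhibitor of cathepsins, averaged 253 ± 1.74 FPKM in 4-NP-treated cells and 117 ± 2.48 FPKM in control cells (SD, n = 2 each) and rose by 1.10 (adjusted p = 0.00123). Cst3, the secreted cystatin C, averaged 54.5 ± 0.980 FPKM in 4-NP-treated cells and 103 ± 3.15 FPKM in control cells (SD, n = 2 each) and fell by 0.90 (adjusted p = 0.00206). These genes were chosen after the fact, so their values are descriptions.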
